A study of Homo sapiens with 9 samples.

Results

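Serine, one-carbon and asparagine synthesis was followed through 10 genes: ASNS, PHGDH, PSAT1, PSPH, SHMT1, SHMT2, MTHFD1, MTHFD1L, MTHFD2 and ALDH1L2. The members were taken as every probe set on the array whose platform annotation gave one of these symbols and no other, which yielded 22 probe sets. Of the 10 genes, 8 were bright enough to be tested among 13842 tested genes, out of 19775 genes with a probe set of a single symbol. MTHFD1L and ALDH1L2 were too dim and were described but not tested. RNA came from LiSa-2, a human liposarcoma cell line, and each sample was read on 1 Affymetrix U133 Plus 2.0 array. The groups were LiSa-2 cells given 400 µg/mL HAase for 24 h, cells given the same dose for 6 h, and cells given PBS (phosphate-buffered saline) and taken at 24 h, with 3 arrays each. HAase is hyaluronidase from bovine testis, an enzyme preparation that cleaves hyaluronan, a polysaccharide of the extracellular matrix.

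All groups shared the cell line, the serum-containing medium and the antibiotics, per the labels. They are 1 cell line in culture, and none of the arrays analysed here had inactive enzyme. Whether a group's samples came from separate cultures is not stated in the labels, so the p-values measure only how far these samples spread, and that spread may be technical. PBS cells were taken at 24 h, so in every comparison of 6 h HAase with PBS the enzyme and the time of harvest cannot be told apart. In every comparison of 24 h with 6 h of HAase, the length of exposure and the time of harvest cannot be told apart. In bulk RNA, fewer cells of a type and less RNA per cell cannot be told apart either.

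The pathway starts from glycolysis. PHGDH oxidises a glycolytic intermediate, PSAT1 moves an amino group from glutamate onto the product, and PSPH removes the phosphate to release serine. SHMT2 in mitochondria and SHMT1 in the cytosol split serine into glycine and a one-carbon unit carried by folate. MTHFD2 and MTHFD1L turn that unit into formate in mitochondria, ALDH1L2 oxidises it there to carbon dioxide, and MTHFD1 takes formate up again in the cytosol, where it serves purine and thymidylate synthesis. ASNS makes asparagine from aspartate with nitrogen from glutamine. In many cell types several of these genes are induced by the transcription factor ATF4 when amino acids run short or the endoplasmic reticulum is stressed.

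ATF4 and its C/EBP partners bind a composite element, and promoters were therefore read for its core, TGATGNAA, and for the E-box CACGTG, which MYC and related factors bind. Both motifs were searched on both strands, and neither contains the other. RefSeq windows of 300 bases on GRCh38.p14, from 250 bases before to 50 bases after the start, were at hand for 7 members, 11 windows in all. The windows of the members whose arrays differed most are printed first, and then short pieces around the other matches. Capitals mark the response element core or the E-box.
ASNS, chr7:97872359-97872658, minus strand: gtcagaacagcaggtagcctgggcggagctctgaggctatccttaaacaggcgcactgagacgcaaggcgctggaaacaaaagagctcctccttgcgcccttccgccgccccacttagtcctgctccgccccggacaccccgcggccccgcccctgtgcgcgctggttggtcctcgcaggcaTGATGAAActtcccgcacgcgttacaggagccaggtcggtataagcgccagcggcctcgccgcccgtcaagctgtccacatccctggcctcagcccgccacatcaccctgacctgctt
PSAT1, chr9:78296875-78297174, plus strand: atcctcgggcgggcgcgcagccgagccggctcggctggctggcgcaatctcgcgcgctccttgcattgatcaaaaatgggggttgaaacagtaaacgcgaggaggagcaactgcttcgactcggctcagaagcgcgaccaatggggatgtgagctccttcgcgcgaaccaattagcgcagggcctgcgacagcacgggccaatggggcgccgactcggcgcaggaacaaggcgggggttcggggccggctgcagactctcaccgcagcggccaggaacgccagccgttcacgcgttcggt
PHGDH, chr1:119711684-119711983, plus strand: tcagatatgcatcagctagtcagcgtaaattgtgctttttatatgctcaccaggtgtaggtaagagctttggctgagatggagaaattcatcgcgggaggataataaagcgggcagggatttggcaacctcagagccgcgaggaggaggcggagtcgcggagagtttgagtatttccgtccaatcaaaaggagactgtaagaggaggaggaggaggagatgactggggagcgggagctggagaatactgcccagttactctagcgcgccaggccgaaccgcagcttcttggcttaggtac
MTHFD2, chr2:74198365-74198664, plus strand: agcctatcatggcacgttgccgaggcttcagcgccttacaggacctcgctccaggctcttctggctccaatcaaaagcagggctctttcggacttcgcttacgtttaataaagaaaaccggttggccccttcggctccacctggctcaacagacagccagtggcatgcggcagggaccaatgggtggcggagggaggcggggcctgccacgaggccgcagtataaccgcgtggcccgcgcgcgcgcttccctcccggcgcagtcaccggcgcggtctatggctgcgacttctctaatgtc
MTHFD1L, chr6:150866341-150866380, plus strand: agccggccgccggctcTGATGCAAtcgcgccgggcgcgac
MTHFD1L, chr6:150866316-150866353, plus strand: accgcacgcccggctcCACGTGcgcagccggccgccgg
MTHFD1, chr14:64388322-64388359, plus strand: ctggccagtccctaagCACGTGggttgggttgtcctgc

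ASNS carried the core as TGATGAAA, 68 bases before the start, in the window shown. Its other, partly overlapping window, chr7:97872116-97872415, held neither motif. MTHFD1L carried TGATGCAA and CACGTG close together, at 1 genomic place each that 3 of its overlapping windows cover. MTHFD1 had CACGTG 15 bases before the start. The PSAT1, PHGDH and MTHFD2 windows printed above held neither string, nor did that of SHMT1. Over all 35116 RefSeq windows of this length, 3.62% held TGATGNAA and 7.26% held CACGTG. Among the members with a window, 2 of 7 held the first and 2 of 7 the second. These member counts are by gene over all windows of that gene, while the shares are by single window. A gene with several windows can match more easily, so the figures are not directly comparable. These matches describe letters in a window and were not tested as binding sites.

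The values are the deposited signals per probe set, a linear brightness scaled by array. Each array had a mean of about 500.07 after trimming 2% at each end, and array medians of 55.8 to 61.3. Differences below are of log2(signal + 16) with standard errors, folds are on that scale, and a gene is called at a limma adjusted p under 0.05 over all 13842 genes. Pearson correlations of arrays within a group were at least 0.981 and between groups at most 0.975. Of the liposarcoma amplicon markers, 3 had a probe set, and MDM2 and CDK4 lay on all 9 arrays above the brightest bacterial control probe set, the control level used below. HMGA2, the other, averaged 1643 ± 70.9 at 24 h and 724.6 ± 29.5 at 6 h, against 51.0 ± 8.52 in PBS, where it was above that level on 1 of 3 arrays, and it was called higher at both times (adjusted p = 3.16e-08 and 1.44e-07). The amplicon markers summed to 9879 to 10046 at 24 h and 9060 to 9670 at 6 h, against 8659 to 8957 in PBS. CDK4 averaged 7266 at 24 h and 7600 at 6 h, against 7786 in PBS, and MDM2 1036 and 1050 against 985.8. Neither CDK4 nor MDM2 was called in any comparison. Of 7 adipocyte markers, 6 were above the control level on all 9 arrays. The summed adipocyte markers were 28690 to 33409 at 24 h of HAase and 44236 to 46286 at 6 h, against 56454 to 58498 in PBS. FABP4 was the largest part of these sums, averaging 26097 at 24 h and 31931 at 6 h, against 33295 in PBS. It was 1.28-fold lower at 24 h than in PBS. The other adipocyte markers were 2.77-fold (PPARG) to 17.7-fold (ADIPOQ) lower at 24 h, where ADIPOQ was above the control level on 1 of 3 arrays. The adipocyte markers called lower than in PBS were 7 of 7 at 24 h and 5 of 7 at 6 h. Of all tested genes, 22.8% and 27.4% were called lower in these comparisons. Epithelial markers had KRT8 alone above that control level on all 9 arrays and 3 of 5 on none, with sums of 192 to 260 at 24 h, 192 to 289 at 6 h and 170 to 248 in PBS. Leukocyte markers summed to 217 to 272, 121 to 178 and 103 to 137 in the same order. Of 4 leukocyte markers, LCP1 alone was above control on all arrays, and 1 was on none. LCP1 was called higher than PBS at 24 h (0.88, adjusted p = 0.00978) and not at 6 h (0.35, adjusted p = 0.214). Endothelial markers summed to 415 to 433, 370 to 418 and 272 to 334, again with 1 of 4 on all, PECAM1, and 1 on none. PECAM1 was called higher than PBS at both times (0.53 and 0.40, adjusted p = 0.000496 and 0.00242). The log2 difference between 3′ and 5′ control probe sets of ACTB was 1.38 to 1.62 at 24 h and 1.14 to 1.50 at 6 h, against 1.56 to 1.70 in PBS, and that of GAPDH was -0.21 to -0.02 and -0.06 to 0.04, against -0.02 to 0.04. The part of these marker and RNA differences in the results on the members was not tested.

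ASNS, the asparagine synthetase, had the largest difference from PBS among the 8 tested members at 24 h. Its probe set 205047_s_at read 2171, 2323 and 2229 at 24 h of HAase, 322.3, 294.9 and 303.1 at 6 h, and 379.7, 442.8 and 370.4 in PBS. All 24 h arrays lay above all others, and all 6 h arrays lay below all PBS arrays. The mean was 2241 ± 76.6 at 24 h and 306.8 ± 14.1 at 6 h, against 397.6 ± 39.4 in PBS (SD, n = 3 each). ASNS was 5.47-fold higher at 24 h than in PBS (log2 difference 2.45 ± 0.08 SE, adjusted p = 2.26e-07) and 1.28-fold lower at 6 h than in PBS (-0.35 ± 0.08, adjusted p = 0.00699). Between the enzyme groups it was 6.99-fold higher at 24 h than at 6 h (2.81 ± 0.08, adjusted p = 6.51e-07). That placed ASNS at rank 7 of 13842 genes from the highest difference between 24 h and 6 h of HAase, and at rank 101 for 24 h HAase against PBS. When all ASNS probe sets were averaged, the difference of 24 h from PBS was 1.17 and that of 24 h from 6 h was 1.43, both still called, while that of 6 h from PBS was -0.26 and no longer called (adjusted p = 0.0701). That average takes in 241082_at, which read at most 11.6 on any array and was above the control level on 0 of 9.

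**Figure D1:**
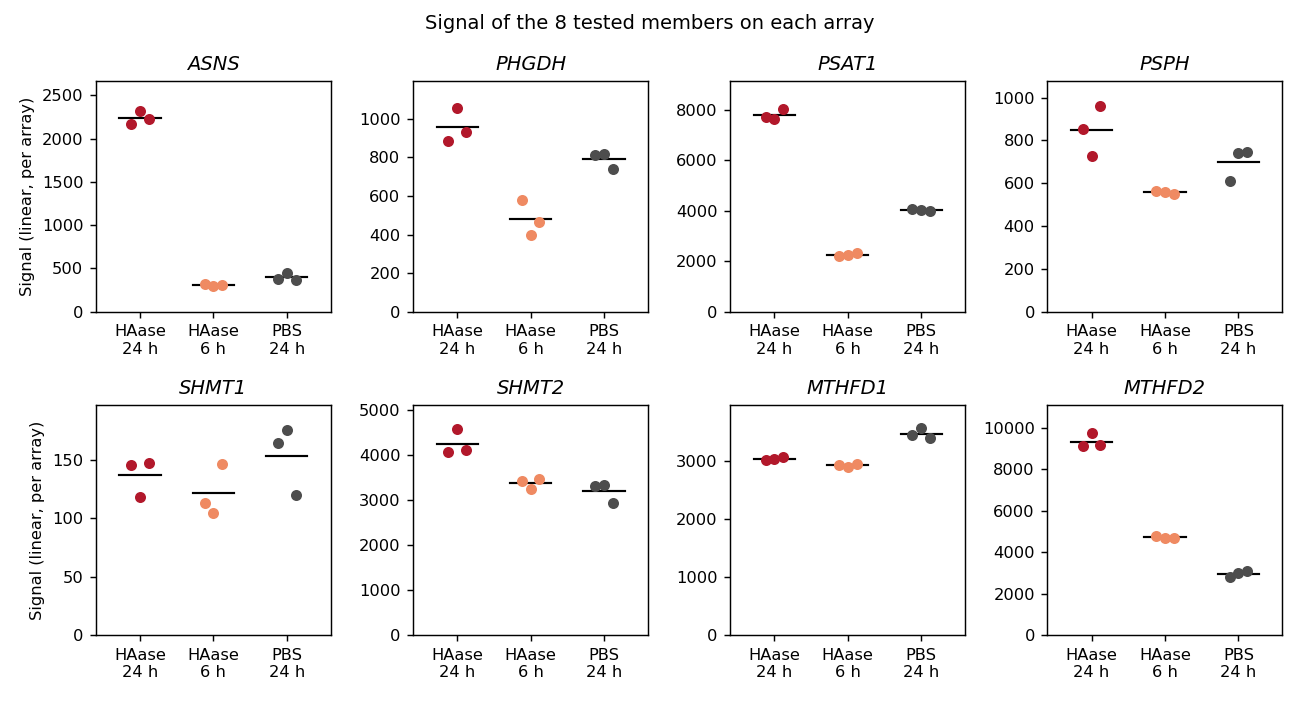
Signal of the tested members' representing probe sets on each array (linear axis from 0, scaled per gene), with points for single arrays of HAase 24 h, HAase 6 h and PBS from left to right and a black bar for the group mean. The ASNS points at HAase 24 h stand at 2171 to 2323, far above those at HAase 6 h and in PBS, while the MTHFD2 points rise above PBS in both HAase groups.

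The enzymes that make serine were lower at 6 h of HAase than at 24 h, and differed in how they stood against PBS. PSAT1, the aminotransferase of the middle step, read 7729, 7632 and 8021 on 223062_s_at at 24 h, 2219, 2234 and 2320 at 6 h, and 4052, 4043 and 4007 in PBS. The groups did not overlap, and PBS lay between the HAase groups. PSAT1 rose 1.93-fold at 24 h (0.95 ± 0.05, adjusted p = 2.03e-06) and fell 1.78-fold at 6 h (-0.83 ± 0.05, adjusted p = 6.5e-06), both against PBS. It was 3.43-fold higher at 24 h than at 6 h (1.78 ± 0.05, adjusted p = 5.71e-07), rank 43 of 13842 for that difference. The second PSAT1 probe set, 220892_s_at, averaged 1158 at 24 h and 307.7 at 6 h, against 587 in PBS, with log2 differences of 0.96 and -0.91 from PBS, both called.

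PHGDH, the first enzyme of the route, read 885.5, 1055 and 929.8 at 24 h, 581.5, 400.1 and 463.4 at 6 h, and 814.2, 819.5 and 740.1 in PBS. The 6 h arrays were all below the others, and the 24 h arrays were all slightly above those in PBS. PHGDH fell 1.64-fold at 6 h against PBS (-0.71 ± 0.13, adjusted p = 0.00344) and was 1.97-fold higher at 24 h than at 6 h (0.98 ± 0.13, adjusted p = 0.0010). At 24 h against PBS its difference was 0.27 ± 0.13, not called (adjusted p = 0.152), with a 95% interval of -0.04 to 0.57. PHGDH had 1 probe set with its symbol alone.

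PSPH, the phosphatase that completes serine synthesis, read 854.5, 727.3 and 959.3 at 24 h, 565.6, 561.3 and 549.6 at 6 h, and 610.0, 743.1 and 746.7 in PBS. The 24 h and PBS arrays overlapped, and the 6 h arrays were below both. PSPH was 1.49-fold higher at 24 h than at 6 h (0.58 ± 0.11, adjusted p = 0.00614). Against PBS its differences of 0.27 ± 0.11 at 24 h and -0.31 ± 0.11 at 6 h were not called (adjusted p = 0.101 and 0.0603). Without the second 24 h array the 24 h difference was 0.37 and called (adjusted p = 0.0302). Without the first PBS array the 6 h difference was -0.40 and called (adjusted p = 0.0279), and it was also called without the second or the third 24 h array (adjusted p = 0.0338 and 0.0418). The other PSPH probe sets bright enough to test had lower means at 6 h too. On 205048_s_at the mean was 256.1 at 24 h and 182.9 at 6 h, against 243.6 in PBS, and the difference of 6 h from PBS was called (-0.39, adjusted p = 0.0397). That call was lost under each of the 3 alternatives run on probe sets (adjusted p = 0.0635 with the replicate block, 0.104 with quantile normalization and 0.0761 with no filter on dim probe sets). On 244819_x_at no comparison was called.

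**Figure D2:**
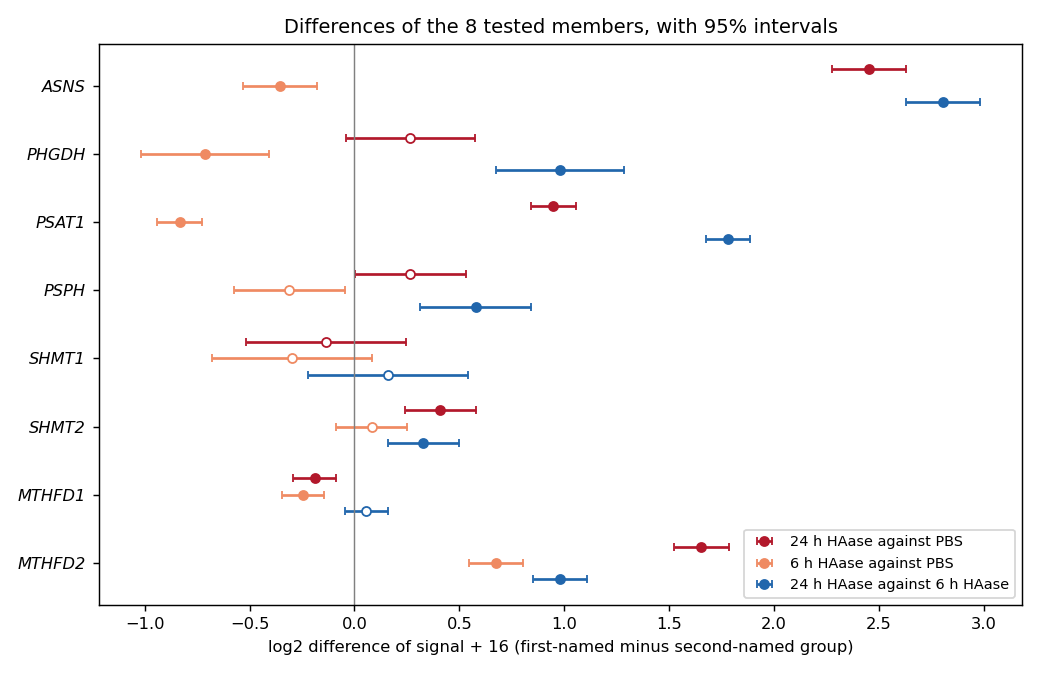
Log2 difference of each tested member in 24 h HAase against PBS, 6 h HAase against PBS and 24 h HAase against 6 h HAase, with 95% intervals, and filled points where the adjusted p was under 0.05. At 6 h against PBS the filled points of ASNS, PSAT1, PHGDH and MTHFD1 lie below 0, and that of MTHFD2 above 0. At 24 h against PBS those of ASNS, PSAT1, SHMT2 and MTHFD2 lie above 0, and that of MTHFD1 below 0.

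The enzymes that split serine differed between compartments in what the test called. SHMT2, the mitochondrial enzyme, read 4062, 4568 and 4116 at 24 h, 3432, 3240 and 3462 at 6 h, and 3322, 3326 and 2940 in PBS. Its 24 h arrays were above all others, and its 6 h arrays overlapped those in PBS. SHMT2 rose 1.33-fold at 24 h against PBS (0.41 ± 0.07, adjusted p = 0.00283) and 1.26-fold at 24 h against 6 h (0.33 ± 0.07, adjusted p = 0.0108). At 6 h against PBS the difference was 0.08 ± 0.07 (adjusted p = 0.419, 95% interval -0.09 to 0.25). Its probe set 214437_s_at was called higher at 24 h against PBS (0.57), while 214095_at differed by 0.33 and was not called (adjusted p = 0.101).

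SHMT1, the cytosolic enzyme, read 145.8, 118.0 and 146.8 at 24 h, 113.2, 104.1 and 146.3 at 6 h, and 164.0, 175.5 and 119.6 in PBS. All groups overlapped. SHMT1 differed from PBS by -0.13 ± 0.16 at 24 h (adjusted p = 0.563, 95% interval -0.52 to 0.25) and by -0.30 ± 0.16 at 6 h (adjusted p = 0.189, interval -0.68 to 0.08). Whether SHMT1 and SHMT2 differ in their response was not tested. The second SHMT1 probe set, 217304_at, was above the control level on 1 of 9 arrays.

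MTHFD2, the mitochondrial dehydrogenase and cyclohydrolase, was the tested member called higher than PBS in both HAase groups. On 201761_at it read 9106, 9748 and 9147 at 24 h, 4776, 4695 and 4713 at 6 h, and 2794, 2992 and 3090 in PBS. No array of one group overlapped another, and the order was 24 h, 6 h, PBS. MTHFD2 was 3.14-fold higher at 24 h than in PBS (1.65 ± 0.06, adjusted p = 3.24e-07), 1.60-fold higher at 6 h than in PBS (0.67 ± 0.06, adjusted p = 5.66e-05) and 1.97-fold higher at 24 h than at 6 h (0.98 ± 0.06, adjusted p = 1.49e-05). The dimmer probe set 234976_x_at averaged 137.6 at 24 h and 65.4 at 6 h, against 51.4 in PBS. It was called at 24 h against PBS (1.19) and not at 6 h (0.29, adjusted p = 0.252).

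MTHFD1, the cytosolic enzyme that takes formate into the folate pool, was slightly lower in both HAase groups. It read 3012, 3038 and 3061 at 24 h, 2927, 2895 and 2936 at 6 h, and 3435, 3568 and 3389 in PBS. Each HAase array was below each PBS array. MTHFD1 fell 1.14-fold at 24 h (-0.19 ± 0.04, adjusted p = 0.0103) and 1.19-fold at 6 h (-0.25 ± 0.04, adjusted p = 0.00295). The 24 h arrays were above the 6 h arrays by 0.06 ± 0.04, which was not called (adjusted p = 0.378, 95% interval -0.05 to 0.16). Averaged with the MTHFD1 probe set 239846_at, which was above the control level on 0 of 9 arrays, neither difference from PBS was called (-0.11 and -0.09, adjusted p = 0.496 and 0.559).

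MTHFD1L, the mitochondrial formate-making ligase, and ALDH1L2, the mitochondrial formyl-tetrahydrofolate dehydrogenase, stayed near background. The MTHFD1L probe set 1561125_at averaged 24.9 at 24 h and 29.7 at 6 h, against 23.1 in PBS, and was above the control level on 0 of 9 arrays. Its other probe set, 225518_x_at, averaged 37.0, 28.2 and 9.08 in the same order and was above control on 1 of 3, 1 of 3 and 0 of 3 arrays. With dim probe sets left in the fit, 225518_x_at was called higher at 24 h than in PBS (1.07 ± 0.26, adjusted p = 0.0258). The brightest ALDH1L2 probe set, 1556841_a_at, averaged 37.9 at 24 h, 8.08 at 6 h and 28.9 in PBS, above control on 2 of 3, 0 of 3 and 1 of 3 arrays. Its other probe sets, 1559393_at and 231202_at, were above control on 0 of 9. These levels give no order of the groups for either gene.

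**Figure D3:**
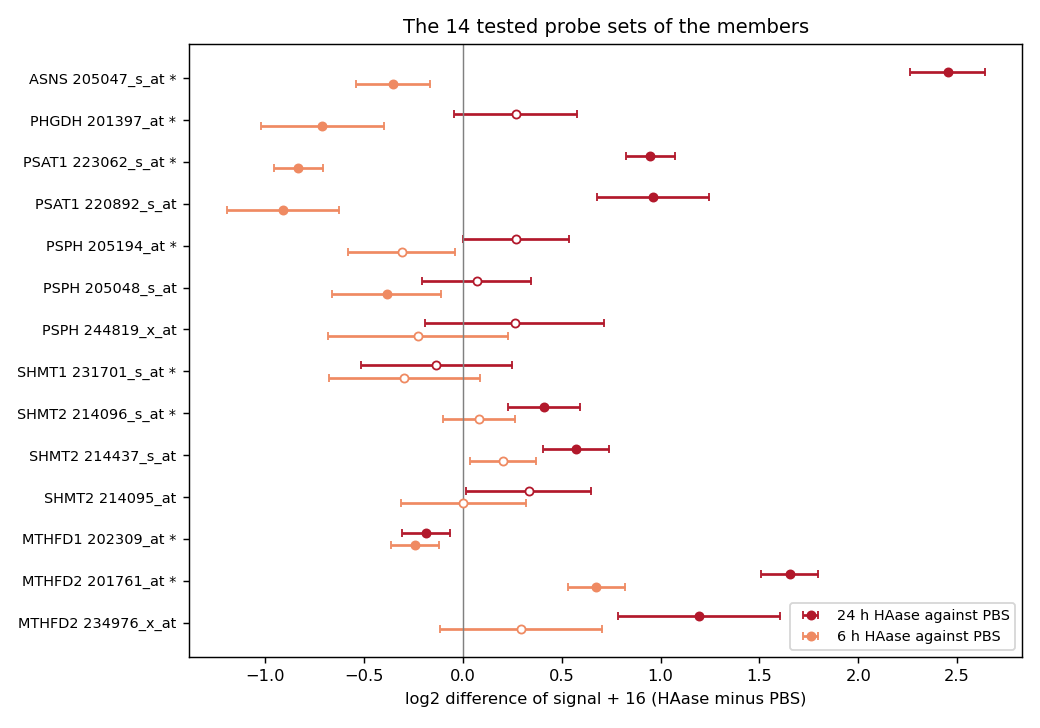
Log2 differences with 95% intervals for each of the 14 member probe sets bright enough to test, in 24 h HAase against PBS and 6 h HAase against PBS, with filled points where called and an asterisk at the probe set that represents its gene. Both PSAT1 probe sets lie near 0.95 at 24 h against PBS, and the MTHFD2 probe sets at 1.65 and 1.19.

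At 24 h of HAase against PBS, 4 of the 8 tested members were called higher (ASNS, PSAT1, SHMT2 and MTHFD2), where 17.5% of all tested genes were, and MTHFD1 was called lower, where 22.8% of genes were. At an unadjusted p under 0.05 by limma the counts were 5 and 1. The shares of all genes are at the adjusted threshold. None is given at the unadjusted one, so counts at that cut, here and below, have no share to be read beside. The median difference was 0.34 over the members and -0.03 over all genes. For 6 of 8 members, no 24 h array lay within the PBS range or the reverse, as for 52% of all genes.

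At 6 h of HAase against PBS the balance ran the other way. MTHFD2 was the 1 member called higher, where 15% of genes were, and ASNS, PHGDH, PSAT1 and MTHFD1 were the 4 called lower, where 27.4% were. At an unadjusted p under 0.05 by limma there were 1 and 5, again without a share of all genes at that cut. The median was -0.30 over the members and -0.08 over all genes, and 6 of 8 members did not overlap, against 54.2% of genes. Both comparisons use the same PBS arrays, so they are not independent of each other.

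At 24 h against 6 h of HAase, 6 of 8 members were called higher (ASNS, PSAT1, PHGDH, MTHFD2, PSPH and SHMT2), where 19.7% of genes were. By limma 0 were called lower, where 13.3% of genes were, and 0 had an unadjusted p under 0.05 in that direction. The median was 0.78 over the members and 0.05 over all genes, and 7 of 8 did not overlap, against 45.9% of genes. The members were chosen with results of these arrays known, so these counts describe the list and are not a test of it.

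Counted by probe set, the 14 member probe sets bright enough to test gave 7 higher and 1 lower at 24 h against PBS, where 33.3% of all 26599 tested probe sets were called in either direction. At 6 h against PBS there were 1 higher and 6 lower, where 33.4% were called in either direction. Under each of the 3 alternatives run on probe sets, 5 were lower. At 24 h against 6 h there were 10 higher and 0 lower by limma, also 0 at an unadjusted p under 0.05, where 24.9% were called in either direction. Probe-set shares for a single direction are not given here. PSAT1, PSPH, SHMT2 and MTHFD2 each have more than 1 of the 14 probe sets, so these are not separate genes. Another 5 probe sets carried a member's symbol together with others and were not used.

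The pathway's other genes were read from lists drawn up with earlier results of these data known. Of 58 such genes in the metabolic lists, 45 were tested. They had 11 called higher and 7 lower at 24 h against PBS, 10 higher and 9 lower at 6 h against PBS, and 7 higher and 6 lower at 24 h against 6 h. Their medians were 0.01, -0.03 and -0.03 in that order. Of all tested genes, 17.5% were called higher and 22.8% lower at 24 h against PBS, and 15% and 27.4% at 6 h. At 24 h against 6 h the shares were 19.7% and 13.3%. The counts of each list below are to be read beside these shares, and no list was tested as a set.

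In the folate cycle and its carriers, 12 of 15 genes were tested, with 3 higher and 1 lower in each comparison with PBS, and 2 higher and 1 lower at 24 h against 6 h. MTHFD2L, a close relative of MTHFD2, averaged 2070 ± 38.4 at 24 h and 1585 ± 47.9 at 6 h, against 1053 ± 66.5 in PBS (SD, n = 3 each). The order of its groups was that of MTHFD2, and it rose by 0.97 at 24 h and 0.58 at 6 h against PBS (adjusted p = 7.46e-06 and 0.00016). SLC25A32, a mitochondrial folate carrier, rose by 0.55 at 24 h and 0.49 at 6 h (adjusted p = 9.69e-05 and 0.000228). MTRR, which reactivates methionine synthase, rose by 0.17 and 0.24 (adjusted p = 0.0326 and 0.007). TYMS, the thymidylate synthase, was lower at 24 h (-0.18, adjusted p = 0.0144), and MTFMT, which formylates the mitochondrial initiator transfer RNA, was lower at 6 h (-0.25, adjusted p = 0.00527).

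Among glycine cleavage and serine carrier genes, 8 of 10 were tested, and limma called 0 higher than PBS in either HAase group, also 0 at an unadjusted p under 0.05. There was 1 lower at 24 h, DLD, a subunit of the glycine cleavage system that other dehydrogenase complexes share (-0.36, adjusted p = 0.00267). At 6 h 2 were lower: SFXN3, a sideroflexin of the family that moves serine into mitochondria (-0.32, adjusted p = 0.0164), and GCAT, a glycine C-acetyltransferase (-0.30, adjusted p = 0.0117). SFXN3 and GCAT were called higher at 24 h than at 6 h (0.28 and 0.24, adjusted p = 0.038 and 0.0385), and DLD lower (-0.20, adjusted p = 0.0477).

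Among genes that use serine, 7 of 10 were tested, with 3 higher and 1 lower at 24 h, and 3 higher and 3 lower at 6 h, each against PBS, and 1 in each direction at 24 h against 6 h. CTH, which makes cysteine from cystathionine, averaged 345.6 ± 13.7 at 24 h and 134.5 ± 28.1 at 6 h, against 315.1 ± 41.2 in PBS. CTH was 2.21-fold lower at 6 h than in PBS (-1.15, adjusted p = 0.000483) and 2.43-fold higher at 24 h than at 6 h (1.28, adjusted p = 0.0004), while at 24 h against PBS it differed by 0.13 (adjusted p = 0.51). CBS, the step before CTH, was 1.65-fold lower at 6 h than in PBS (-0.72, adjusted p = 0.0102). SRR, the serine racemase, was lower at 24 h and 6 h (-0.56 and -0.49, adjusted p = 0.000444 and 0.000944). SPTLC1 and SPTLC2, subunits of the enzyme that joins serine to a fatty acid, and PTDSS1, a phosphatidylserine synthase, were called higher in both HAase groups, SPTLC2 by 0.50 at 24 h and 0.53 at 6 h (adjusted p = 0.00797 and 0.00608).

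All 6 genes of purine synthesis were tested, with 3 higher at 24 h and 2 higher at 6 h against PBS. By limma 0 were lower in either, also 0 at an unadjusted p under 0.05. PPAT, the committed step, averaged 1331 ± 113 at 24 h and 1324 ± 11.7 at 6 h, against 849.7 ± 37.2 in PBS, a rise of 0.64 and 0.63 (adjusted p = 0.000216 and 0.000263). GART, which uses formyl-folate, rose by 0.29 and 0.46 (adjusted p = 0.0016 and 0.000159), and was the 1 gene of the list called at 24 h against 6 h, where it was lower (-0.17, adjusted p = 0.0263). ATIC, another formyl-folate enzyme, rose at 24 h by 0.23 (adjusted p = 0.0133) and differed by 0.16 at 6 h (adjusted p = 0.052).

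In the methionine cycle, 5 of 8 genes were tested, with 2 higher and 2 lower at 24 h, 2 higher and 0 lower at 6 h (also 0 lower at an unadjusted p under 0.05), and 1 higher and 2 lower at 24 h against 6 h, all by limma. NNMT, which spends methyl groups on nicotinamide, averaged 1470 ± 229 at 24 h and 7204 ± 220 at 6 h, against 2069 ± 44.9 in PBS. It was 3.46-fold higher at 6 h than in PBS (1.79, adjusted p = 7.13e-06) and lower at 24 h than in PBS (-0.50, adjusted p = 0.005). MAT2A, which makes the methyl donor S-adenosylmethionine, was called higher at both times (0.19 and 0.27, adjusted p = 0.0271 and 0.00563), and its partner MAT2B at 24 h (0.16, adjusted p = 0.0268). AHCYL1, a relative of the S-adenosylhomocysteine hydrolase, was lower at 24 h (-0.21, adjusted p = 0.0171).

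Around ASNS, 7 of 9 other genes of asparagine and aspartate metabolism were tested. By limma 0 were called higher than PBS at either time, also 0 at an unadjusted p under 0.05, while 2 were lower at 24 h and 3 at 6 h. GOT1, the cytosolic transaminase that makes and uses aspartate, averaged 1267 ± 60.9 at 24 h and 1302 ± 60.0 at 6 h, against 2557 ± 77.3 in PBS. GOT1 was 2.01-fold lower at 24 h (adjusted p = 6.35e-06) and 1.95-fold lower at 6 h (adjusted p = 1.17e-05). ASRGL1, an asparaginase, was lower at both times (-0.61 and -0.58, adjusted p = 0.00884 and 0.0108), and GLUL, the glutamine synthetase, at 6 h (-0.18, adjusted p = 0.02). At 24 h against 6 h, NARS2, the mitochondrial asparagine tRNA synthetase, was the 1 called higher (0.28, adjusted p = 0.0255), with 0 lower by limma and 0 lower at an unadjusted p under 0.05.

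All 12 named regulators were tested, with 6 higher and 0 lower at 24 h against PBS by limma (7 and 0 at an unadjusted p under 0.05), 6 higher and 2 lower at 6 h, and 6 higher and 1 lower at 24 h against 6 h. Over all tested genes the shares called higher and lower were 17.5% and 22.8%, 15% and 27.4%, and 19.7% and 13.3% in that order. These shares are at the adjusted threshold and do not apply to the unadjusted counts. ATF4 averaged 14468 ± 641 at 24 h and 9760 ± 363 at 6 h, against 7668 ± 93.6 in PBS. It was called higher at 24 h and 6 h against PBS (0.91 and 0.35, adjusted p = 6.05e-06 and 0.00141), as was TRIB3, a pseudokinase induced by ATF4 (2.42 and 1.35, adjusted p = 2.54e-07 and 7.84e-06). DDIT3, a stress-induced C/EBP family factor, rose by 0.88 and 0.56 (adjusted p = 1.07e-05 and 0.000176). MYC averaged 5229 ± 9.63 at 24 h and 7822 ± 124 at 6 h, against 3064 ± 66.8 in PBS. MYC rose by 0.77 and 1.35 against PBS (adjusted p = 4.93e-06 and 3.83e-07), and it was lower at 24 h than at 6 h (-0.58, adjusted p = 5.61e-05), where ATF4 was higher (0.57, adjusted p = 0.000173). NFE2L2, an activator of the antioxidant response, rose by 0.32 and 0.50 (adjusted p = 0.0101 and 0.00119), and CEBPG, a partner of ATF4, rose at 24 h by 0.49 (adjusted p = 0.00129) and differed by 0.01 at 6 h (adjusted p = 0.926). The regulators called lower at 6 h were KEAP1, the inhibitor of NFE2L2 (-0.47, adjusted p = 0.000961), and EIF2AK4, the kinase that senses uncharged transfer RNA (-0.36, adjusted p = 0.00631). Both were called higher at 24 h than at 6 h (0.41 and 0.50, adjusted p = 0.00258 and 0.00175). EIF2AK3, another kinase of the list, was called higher than PBS at 6 h (0.23, adjusted p = 0.036) and not at 24 h (0.20, adjusted p = 0.0634). CEBPB, ATF5 and MTOR were not called in any comparison. At 24 h and 6 h against PBS, CEBPB differed by 0.13 and 0.08 (adjusted p = 0.226 and 0.425). ATF5 differed by 0.08 and 0.10 (adjusted p = 0.703 and 0.637). In the 6 h group ATF4, TRIB3 and DDIT3 were called higher than in PBS as was the member MTHFD2, while the members ASNS, PSAT1, PHGDH and MTHFD1 were called lower.

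**Figure D4:**
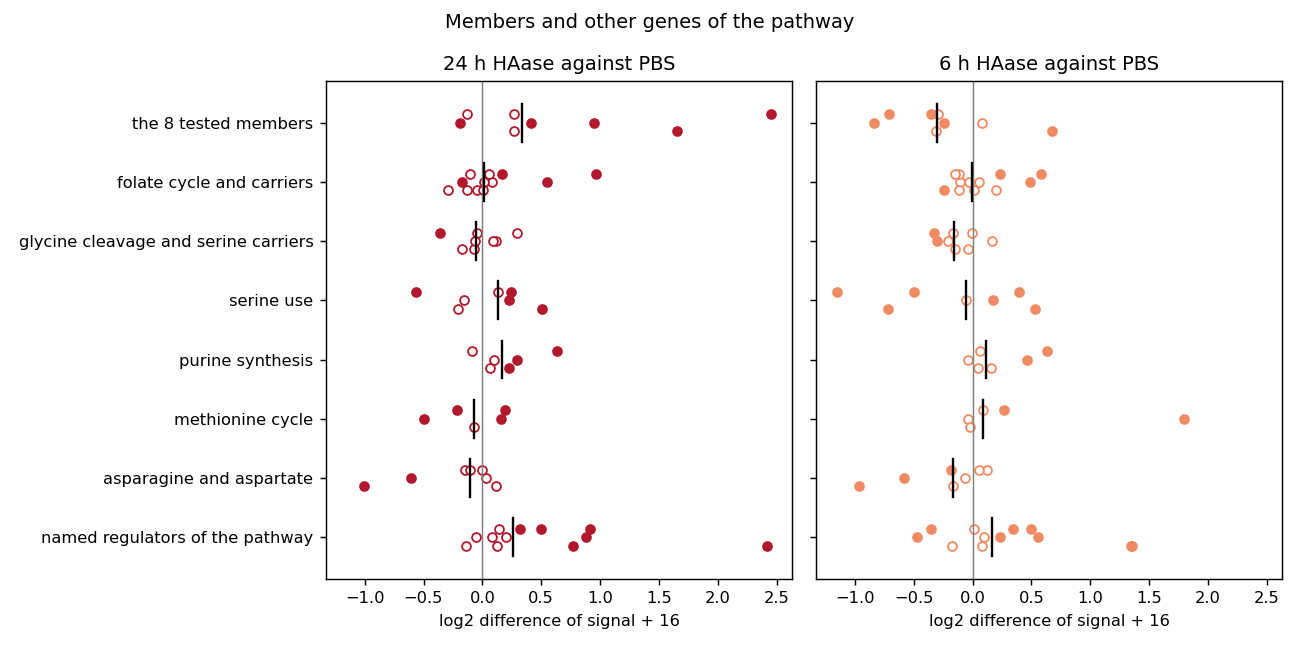
Log2 differences of the tested genes among the members and in each pathway list, for 24 h HAase against PBS on the left and 6 h HAase against PBS on the right, with filled points for called genes, open points for the others and a black bar at each list's median. The tested members' median stands at 0.34 at 24 h against PBS and at -0.30 at 6 h against PBS.

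The pattern of ASNS across the 9 arrays was compared with every other tested gene by the root mean square difference of log2 values centred on each gene's mean. The 5 closest genes, members aside, were PITPNC1 at 0.16, RSAD2 at 0.254, NOG at 0.258, NPTX1 at 0.405 and KCNMA1 at 0.406. PITPNC1, a phosphatidylinositol transfer protein, averaged 1067 ± 104 at 24 h and 158.8 ± 19.6 at 6 h, against 171.1 ± 14.7 in PBS. RSAD2, an interferon-induced antiviral enzyme, and NOG, a secreted BMP antagonist, were above the control level on 3 of 3 arrays at 24 h, on 1 of 3 and 0 of 3 at 6 h, and on 0 of 3 each in PBS, so their distances rest in part on values near background. NPTX1, a secreted pentraxin, and KCNMA1, a potassium channel, averaged 306.6 and 515.5 at 24 h, 66.6 and 125.9 at 6 h, and 50.3 and 103.2 in PBS. Their 6 h means were above those in PBS (log2 differences of 0.33 and 0.27), where that of ASNS was below (-0.35). NPTX1 was above the control level on 2 of 3 arrays in PBS, so its difference also rests in part on values near background. Among the members, PSAT1 was nearest to ASNS at 0.633, followed by MTHFD2 at 0.752, PHGDH at 0.963, PSPH at 1.05, SHMT2 at 1.08, SHMT1 at 1.25 and MTHFD1 at 1.27. These distances describe 9 arrays in 3 groups and carry no test.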

How the data were processed

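Gene expression was measured on 9 arrays, 3 per group. The authors took the deposited tables from CHP files, as the series design text states, and each value in them is a probe set's intensity on a linear scale. The algorithm behind the CHP files is not given in the sources used here, and the trimmed means show a scaling per array. Of 54675 probe sets, 62 were controls, 41091 had 1 symbol, 1801 several and 11721 none here. From log2(signal + 16), limma 3.58.1 in R 4.3.3 fitted 1 mean per group over all 9 arrays, without a block, with Benjamini-Hochberg adjustment. Each gene was represented by its single-symbol probe set of highest mean log2 value, and genes whose mean was under the 30th percentile, near a signal of 32.2, were dropped. The added 16 makes folds of dim genes too small. The control level of an array was the brightest of 27 Bacillus subtilis probe sets, 34.2 to 65. At most 2 values were identical between any pair of arrays. Precision is limited by the number of arrays.

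The members and lists were chosen with earlier results of these data known. Genes named were all members with all their probe sets and the 5 genes most like ASNS. From each metabolic list, up to 4 called genes per comparison were named by size of change. All listed regulators were named, called or not. All 10 members were found in RefSeq by gene ID. The fits were also run on simulated arrays with independent noise and few changed genes. That setting is unlike these data, so the run says nothing on the calls made here. Alternatives changed the pseudocount, the normalization, the filter, the choice of probe set, the variance model, the groups in the fit, the replicate block and each array left out in turn.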

Additional observations from a re-analysis of the deposited data

Results flagged for a closer look

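For 6 members the difference from PBS at 24 h of HAase and that at 6 h differed by limma, which here equals the difference between the HAase groups, since both are set against the same PBS arrays. On the log2 scale, the 24 h difference minus the 6 h difference was 2.81 for ASNS, 1.78 for PSAT1, 0.98 for PHGDH, 0.98 for MTHFD2, 0.58 for PSPH and 0.33 for SHMT2. No PBS cells were taken at 6 h, so these values do not separate the enzyme from the time of harvest. The adjusted p-values stand in the accounts of these genes above.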

How the results depend on the processing

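Of 24 member differences, 17 kept their direction and their side of the threshold under every alternative (19 alternatives, 9 of them leaving out 1 array). Of 453 values in all, 2 changed sign, 3 were no longer called and 7 became called, the last all PSPH against PBS. Both that changed sign were not called before or after: with the mean of a gene's probe sets, 24 h against 6 h was -0.24 for SHMT1 and -0.015 for MTHFD1, in place of 0.16 and 0.06. With the mean of a gene's probe sets, 0 members were called lower at 24 h against PBS in place of 1 (0 also at an unadjusted p under 0.05 by limma), and 2 were lower at 6 h in place of 4. PSPH at 6 h against PBS became called with the filter at the 50th percentile, the trended and robust variance model, or only the groups compared in the fit (adjusted p = 0.0323, 0.0288 and 0.0405). The probe-set means take in the dim probe sets of MTHFD1 and ASNS. Of the member probe sets, 0 were lower at 24 h against PBS with no filter on dim probe sets in place of 1, MTHFD1 202309_at being lost (adjusted p = 0.0863, and 1 at an unadjusted p under 0.05 by limma), and under quantile normalization 2 were higher at 6 h in place of 1, SHMT2 214437_s_at being added (adjusted p = 0.0485). With no filter on dim probe sets, PSPH 205048_s_at was no longer called at 24 h against 6 h (adjusted p = 0.0561).

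The labels do not say whether a shared replicate number marks a shared culture, day or batch. Deviations of same-numbered arrays correlated at -0.05 to 0.04, 0 of 9 over 0.1. Those of differently numbered arrays of different groups correlated at -0.06 to 0.06. These values cannot show whether same-numbered arrays shared a culture or day. With the replicate block, 0 member probe sets were lower at 24 h against PBS in place of 1 (MTHFD1 202309_at again, adjusted p = 0.0644, and 1 at an unadjusted p under 0.05 by limma), PSPH 205048_s_at was also lost at 6 h against PBS and at 24 h against 6 h (adjusted p = 0.0635 and 0.0505), and the counts of members called did not change, with 5187, 5447 and 4117 genes called in all, against 5577, 5863 and 4567 without it. Over all alternatives, genes called in all ranged over 4550 to 5985 at 24 h against PBS, 4628 to 6262 at 6 h against PBS and 3271 to 5051 at 24 h against 6 h. SHMT1 fell below the filter at the 50th percentile and has no value there. Signals near background limit MTHFD1L and ALDH1L2.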
